A study of Bos taurus with 30 samples.

Results

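PMEL, TYRP1, TYR and MC1R, 4 genes of melanin pigment, were followed in the skin of 13 cattle. They were found by gene symbol in the probe set annotation, where each had 1 probe set (NCBI gene 281487 for PMEL, 282105 for TYRP1, 280951 for TYR and 281298 for MC1R). They are 4 of 9155 genes named on the array, or 4 of 24016 probe sets, and all 4 were among the 13809 probe sets at or above the array's median in at least 3 arrays. The symbols were chosen with earlier results on these same arrays known. The spread between animals and the differences between groups are therefore descriptions of chosen genes, and the p-values below, adjusted over all 13809 probe sets, are not independent support for that choice.

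Melanin is made in melanocytes, cells of neural crest origin that sit in the epidermis and hair follicle and hand their pigment granules, the melanosomes, to keratinocytes. MC1R is the melanocortin receptor on their surface, and its signal, which raises cyclic AMP and acts in large part through the transcription factor MITF, favours dark eumelanin over red or yellow pheomelanin; the agouti protein ASIP opposes it. PMEL forms the fibrils on which melanin is laid down, TYR (tyrosinase) is the rate-limiting enzyme that oxidises tyrosine, and TYRP1 is a related protein of eumelanin synthesis. In cattle, inherited variants of MC1R, PMEL, TYR and KIT are known to alter coat colour.

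The animals were F2 offspring of a Gyr (Bos indicus) by Holstein (Bos taurus) cross, so all groups share this mixed background, and the labels used here give no coat colour. Skin biopsies came from 6 animals called resistant to ticks (5 arrays before infestation, called 0 h, 6 at 24 h and 5 at 48 h after infestation) and 7 called susceptible (3, 6 and 5 arrays). Each array is 1 biopsy, arrays with 1 animal number are not independent, and whole skin was read, in which fewer melanocytes and less RNA per melanocyte cannot be told apart. Values are log2 microarray signals scaled to 1 mean per array, so a difference of 1 is a 2-fold difference in signal, and precision is bounded by how many arrays there are.

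The 30 arrays had medians between 7.17 and 7.40, against which a low level can be judged. The keratinocyte gene KRT5 was at or above the array median in 30 arrays (median level 14.47) while the melanocyte and nerve sheath factor SOX10 was under it in all 30 arrays (2.23 to 5.88). Resistant animal 1 at 48 h had the score farthest out on the main axis of variation over kept probe sets (65.6, next highest 38.3).

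The animal numbers of 3 arrays were in doubt. Arrays were compared over 100 probe sets that separate the animals at 24 h and 48 h, chosen without the pigment genes and without XIST. All 18 later arrays that could be compared lay nearest to the other array of their own number. That match was favoured in advance, since the probe sets were chosen on these same later arrays. The 0 h arrays took no part in the choice, and all 3 susceptible ones lay nearest to the later arrays of their own number. Of the 5 resistant arrays at 0 h, those numbered 1 and 2 did, whereas those numbered 3, 4 and 5 lay nearest to animals 4, 5 and 6, at root mean square distances of 0.44, 0.55 and 0.69 against 1.89, 1.43 and 2.12 to their own number. XIST, a transcript of females, was high in the array numbered 5 at 0 h (11.54) and low in the later arrays of animal 5 (3.11 and 4.17), and was low in the array numbered 3 (2.05) and high in the later arrays of animal 3 (11.60 and 11.66). Labels were kept as given. Each result that uses the number is given also without these 3 arrays or with their numbers moved up by 1, and the comparisons of group means do not use the number.

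PMEL ran from 5.82 to 13.21 over the 30 arrays, with the lowest values under the array median. In resistant skin at 0 h it was at 11.87, 10.44, 13.16, 13.001 and 5.82 in the arrays numbered 1 to 5, and at 48 h at 10.07, 9.54, 10.52, 13.21 and 6.43 in animals 1, 2, 3, 5 and 6. At 24 h the 6 resistant arrays ran from 6.43 through a median of 11.05 to 12.96. PMEL was under the array median in 3 of the 30 arrays, all of them resistant, namely the array numbered 5 at 0 h and both arrays of animal 6. Susceptible skin read PMEL at 10.66, 10.95 and 12.21 at 0 h in animals 9, 10 and 11, and at 12.76, 10.82, 11.18, 11.84 and 12.66 at 48 h in animals 7, 9, 10, 11 and 13. At 24 h the 6 susceptible arrays ran from 10.57 through 12.45 to 13.06. All 14 susceptible arrays thus lay inside the range of the 13 other resistant arrays, 9.54 to 13.21.

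TYR, the enzyme of the first step, had its 3 lowest values in the same 3 arrays, at 1.498 in the array numbered 5 at 0 h and at 3.12 and 0.91 in animal 6 at 24 h and 48 h. Signals this far under the array median have no order that can be read. The other resistant arrays at 0 h read TYR at 7.74, 6.36, 10.23 and 10.20 (numbers 1 to 4), and those at 48 h at 6.94, 7.15, 7.28 and 8.83 (animals 1, 2, 3 and 5). The 6 resistant arrays at 24 h had a median of 7.79 and a highest value of 9.42. TYR in susceptible skin was at 8.33, 7.10 and 8.37 at 0 h and at 8.996, 7.78, 8.44, 7.83 and 9.62 at 48 h, and at 24 h it ran from 7.56 through 9.03 to 9.77. Over all arrays TYR was at or above the array median in 22 of 30.

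TYRP1 had the widest spread of the 4 genes, from 1.09 to 12.79. At 0 h resistant skin read 11.03, 4.12, 12.79, 12.10 and 2.61 (numbers 1 to 5) and at 48 h 9.56, 4.204, 7.001, 11.84 and 1.09 (animals 1, 2, 3, 5 and 6). At 24 h the 6 resistant arrays ran from 4.64 through 9.39 to 12.08. Low TYRP1 was not limited to the 3 arrays low in PMEL: all 3 arrays of resistant animal 2 read TYRP1 at 4.12 to 5.99 with PMEL at 9.54 to 10.44. Susceptible skin read TYRP1 at 6.60, 8.96 and 10.81 at 0 h and at 12.32, 7.34, 9.72, 10.61 and 12.60 at 48 h, and from 6.34 through 11.65 to 12.70 at 24 h. Susceptible animal 9 held the lowest susceptible value at each time, 6.60, 6.34 and 7.34, with PMEL at 10.57 to 10.82.

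MC1R, the receptor, was at or above the array median in 17 of 30 arrays and ran from 5.86 to 9.55. At 0 h resistant skin read 7.51, 6.39, 8.87, 8.79 and 6.25 (numbers 1 to 5) and at 48 h 6.76, 6.06, 6.98, 9.55 and 5.93 (animals 1, 2, 3, 5 and 6). At 24 h its resistant arrays ran from 5.86 through 7.31 to 9.34. Susceptible skin read MC1R at 7.005, 7.56 and 8.10 at 0 h and at 8.96, 6.90, 7.58, 7.70 and 8.59 at 48 h, and from 6.70 through 8.47 to 9.15 at 24 h. Its 6 lowest values belonged to resistant animals 2 and 6 and to the array numbered 5 at 0 h.

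**Figure D1:**
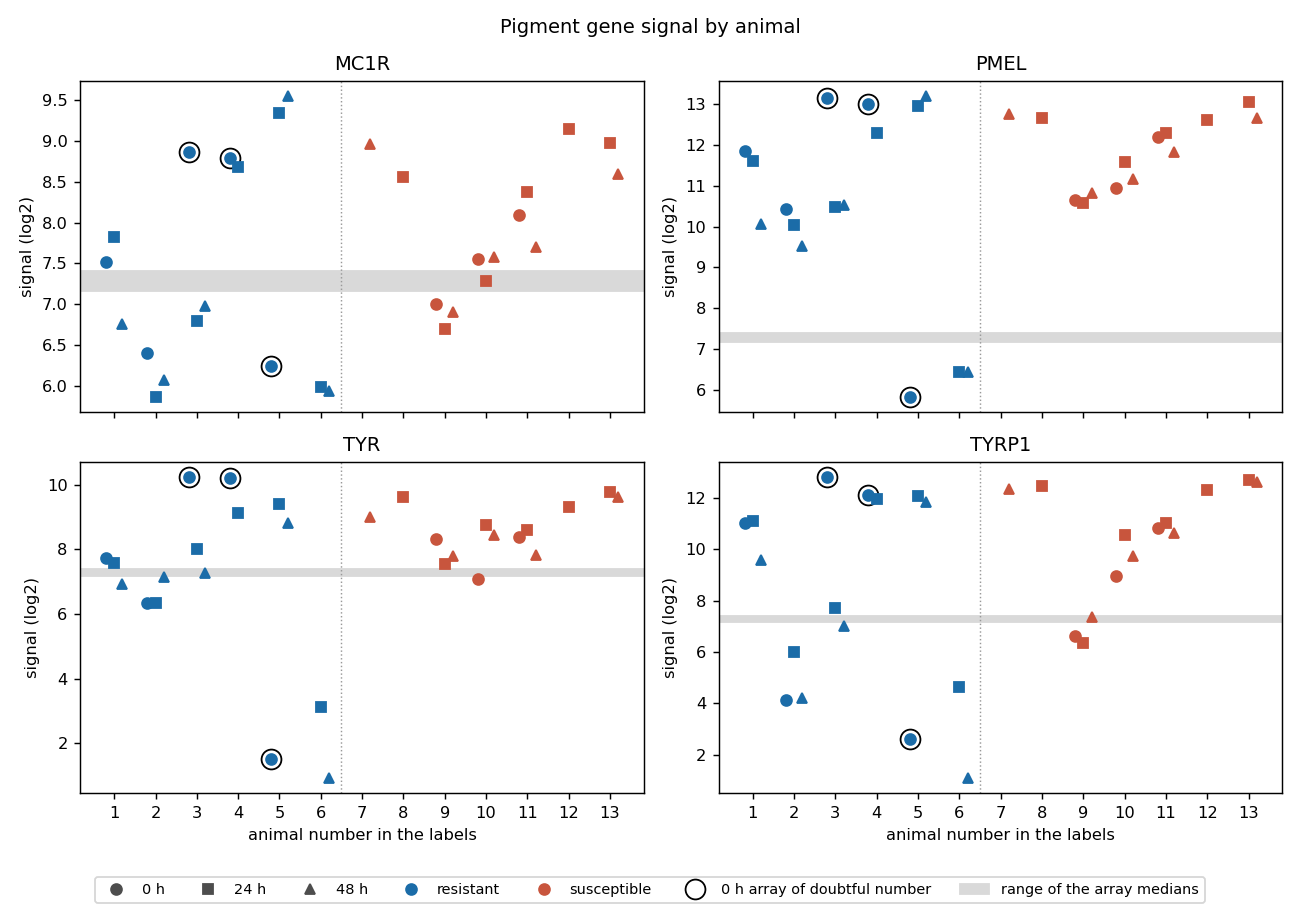
Signal (log2, vertical axis) of MC1R, PMEL, TYR and TYRP1 in each of 30 arrays by animal number (horizontal axis; 1 to 6 resistant, 7 to 13 susceptible), with the time of biopsy as the symbol, the 3 arrays of doubtful number circled and the range of the array medians in grey. The widest gaps within a number in PMEL are at 5 (5.82 against 12.96 and 13.21) and 3 (13.16 against 10.50 and 10.52); at 6, PMEL is at 6.43 at both times while TYRP1 is at 4.64 and 1.09.

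An animal's level was largely kept from biopsy to biopsy once the 3 arrays were set aside. Over the 9 animals that then had more than 1 array (23 arrays), with the mean of each time removed, 96.8% of the variance of PMEL lay between animals, 96.2% of that of TYRP1, 95.0% of that of MC1R and 94.2% of that of TYR. The median of all 13809 probe sets was 50.6%, and the 4 genes ranked 9, 16, 30 and 41 among them. The SD within animals was 0.39 for PMEL, 0.76 for TYRP1, 0.30 for MC1R and 0.60 for TYR. Resistant animal 6 lay far under the other animals in PMEL (6.43 at both times) and in TYR (3.12 and 0.91). The shares without the doubtful arrays were not computed without that animal, so its weight in them is not known. With the numbers as labelled (10 animals, 27 arrays) the shares were 58.6%, 70.3%, 66.3% and 64.6%, against a median of 46.4% for all probe sets, and the SD of PMEL within animals was 1.59. With the 3 numbers moved the shares were 97.0%, 96.6%, 95.3% and 95.0%. The labelled share of PMEL rested on single arrays: it was 92.6% without the array numbered 5 at 0 h and 28.7% without either array of animal 6, which leaves that animal with 1 array.

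**Figure D2:**
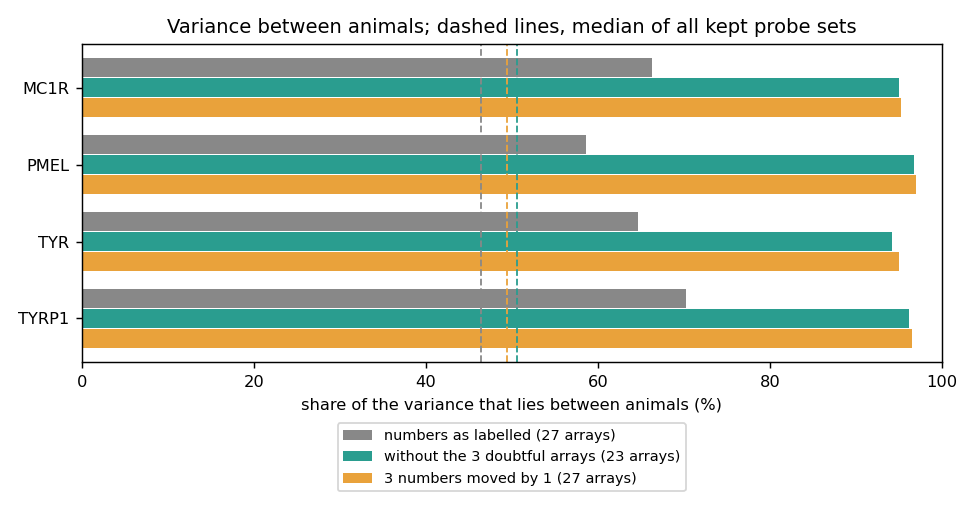
Share of the variance that lies between animals (percent, horizontal axis, from 0) for each pigment gene, with the numbers as labelled, without the 3 doubtful arrays and with their numbers moved; dashed lines give the median of all kept probe sets for each. The 4 genes lie at 58.6% to 70.3% as labelled and at 94.2% to 97.0% in the other 2 settings.

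The variance between animals was split by phenotype, with 1 degree of freedom between the phenotypes and 8 among animals of 1 phenotype, so the shares are not to be set against each other. With the numbers as labelled, 8.199% of the variance of PMEL lay between resistant and susceptible animals and 50.4% between animals of 1 phenotype; the shares between phenotypes were 6.26% for TYRP1, 10.3% for TYR and 2.80% for MC1R. Without the 3 doubtful arrays these shares were 14.1% for PMEL, 13.5% for TYRP1, 19.97% for TYR and 9.13% for MC1R. The median share between phenotypes over all kept probe sets was 3.17% as labelled and 3.80% without these arrays. As labelled, the SD of their 6 animal means was 2.13 for PMEL, against 0.85 for the 7 susceptible animals, and 2.62 against 0.75 for TYR, 3.51 against 2.15 for TYRP1 and 1.14 against 0.84 for MC1R. With the 3 numbers moved the resistant SDs were 2.47, 2.85, 3.98 and 1.34 in the same order. Resistant animal 6 weighed heavily: without it the resistant SDs as labelled were 0.98 for PMEL, 1.32 for TYR, 2.71 for TYRP1 and 1.02 for MC1R. With the 3 numbers moved and without animal 6 they were 1.35, 1.35, 3.26 and 1.31 in the same order. The difference in spread was not tested.

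The comparison of resistant with susceptible skin asked whether the groups differed at each time. No member passed at any of the 3 times in the limma fit of 6 group means, where the calls over all probe sets were 0% at 0 h, 0% at 24 h and 0.0145% at 48 h. At an unadjusted p under 0.05 there were 0 of 4 members at each time, against 4.51%, 4.40% and 10.1% of all probe sets.

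At 0 h the means were close. PMEL was at 10.86 ± 3.02 (SD, n = 5) in resistant and 11.27 ± 0.82 (SD, n = 3) in susceptible skin, a difference of -0.42 ± 1.35 (SE). TYR differed by -0.73 ± 1.53 (SE), TYRP1 by -0.26 ± 2.27 (SE) and MC1R by 0.01 ± 0.80 (SE). The limma adjusted p was 0.99995 for each, and the values of the 2 groups overlapped for all 4 genes.

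At 24 h all 4 genes were lower on average in resistant skin, within the spread. PMEL was at 10.64 ± 2.33 (SD, n = 6) against 12.13 ± 0.91 (SD, n = 6), a difference of -1.49 ± 1.06 (SE), and TYR differed by -1.67 ± 1.21 (SE). TYRP1 differed by -1.98 ± 1.79 (SE) and MC1R by -0.76 ± 0.63 (SE), all at a limma adjusted p of 0.978. Leaving out 1 array gave -1.95 to -0.65 for PMEL and -2.10 to -0.84 for TYR (without resistant animals 5 and 6), -2.89 to -1.13 for TYRP1 (without susceptible animal 9 and resistant animal 6) and -1.15 to -0.45 for MC1R (without resistant animals 5 and 2).

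At 48 h the differences of group means were wider and still within the spread, but the times do not hold the same animals. Resistant animal 4 has no 48 h array, and susceptible animals 7 and 13 have 48 h arrays but none at 0 h. Between 0 h and 48 h TYRP1 moved on average by 0.43 in the 3 susceptible animals with both arrays. In 4 such resistant animals it moved by 0.51 with the numbers as labelled and by -0.79 with 3 numbers moved. TYRP1 was at 6.74 ± 4.25 (SD, n = 5) in resistant and 10.52 ± 2.14 (SD, n = 5) in susceptible skin, a difference of -3.78 ± 1.97 (SE, limma adjusted p = 0.513). PMEL was at 9.95 ± 2.42 (SD, n = 5) against 11.85 ± 0.87 (SD, n = 5), a difference of -1.90 ± 1.17 (SE, limma adjusted p = 0.587). TYR differed by -2.31 ± 1.32 (SE, limma adjusted p = 0.553) and MC1R by -0.89 ± 0.69 (SE, limma adjusted p = 0.686). Of the 5 resistant arrays, 4 lay under all 5 susceptible arrays for PMEL and for TYR (animals 1, 2, 3 and 6), and 3 did for TYRP1 (animals 2, 3 and 6) and for MC1R (animals 1, 2 and 6). The overlap in PMEL and TYR came from animal 5 alone, at 13.21 and 8.83. Leaving out 1 array gave -2.71 to -1.01 for PMEL, -5.06 to -2.37 for TYRP1, -2.96 to -0.98 for TYR and -1.51 to -0.61 for MC1R, the first without resistant animal 5 and the second without resistant animal 6. Without animal 5 at 48 h 4 of 4 members had an unadjusted limma p under 0.05, as did 1338 of 13809 probe sets, and none was called. That array was singled out after its values were seen, as the one that held the overlap in PMEL and TYR. The lower p without it is therefore no support for a difference. Animal 5 was also high in PMEL at 24 h (12.96). XIST at 48 h was low in resistant animal 5 (3.11) and high in resistant animals 1, 2, 3 and 6 (11.66 to 12.07). In susceptible skin it was low in animals 7, 9 and 10 (4.02 to 4.91) and high in animals 11 and 13 (11.97 to 12.12). By this transcript of females the sexes were not balanced between the groups. The part of sex in the differences was not tested.

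**Figure D3:**
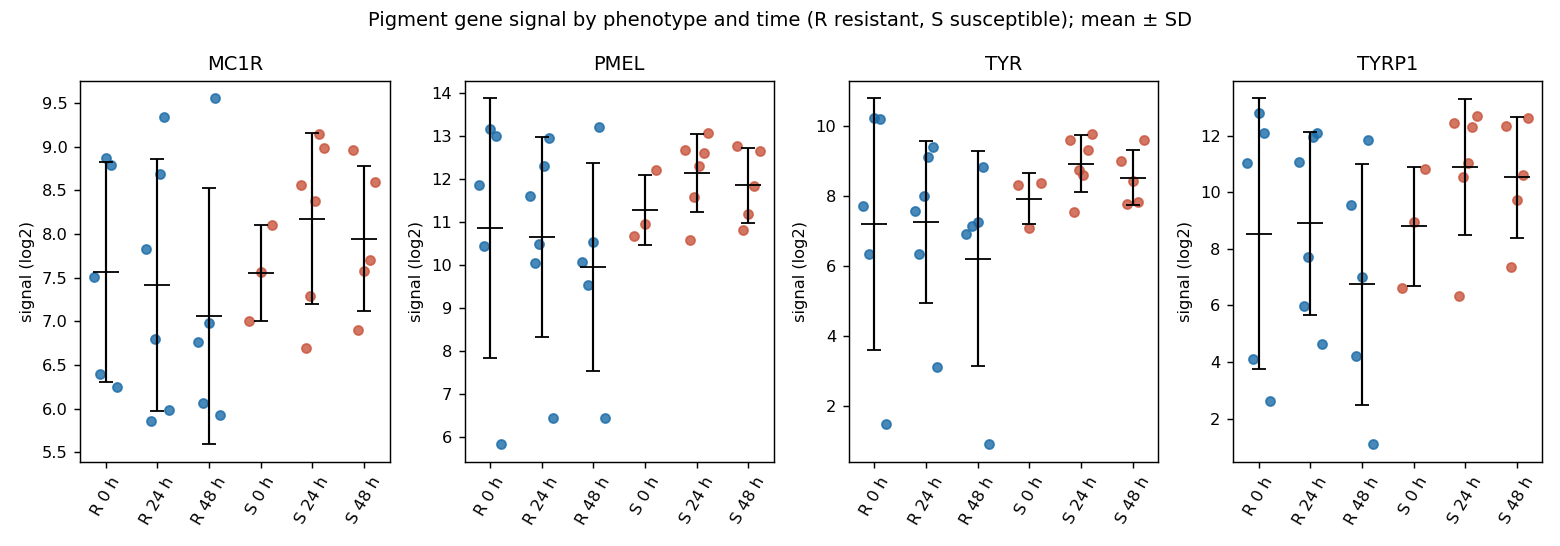
Signal (log2, vertical axis) of each pigment gene by phenotype and time (horizontal axis; R resistant, S susceptible); points are arrays (5, 6, 5, 3, 6 and 5) and bars are the mean with 1 SD. The groups overlap in every panel, and the resistant groups have the longer bars, as with PMEL at 48 h (SD 2.42 against 0.87).

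With 1 mean per animal over its arrays, 6 resistant against 7 susceptible animals, no member passed either (0% of all probe sets did). PMEL was at 10.39 ± 2.13 (SD, n = 6) against 12.13 ± 0.85 (SD, n = 7), a difference of -1.75 ± 0.75 (SE, limma adjusted p = 0.655). TYR differed by -2.04 ± 0.89 (SE, limma adjusted p = 0.662), TYRP1 by -2.97 ± 1.36 (SE, limma adjusted p = 0.678) and MC1R by -0.92 ± 0.48 (SE, limma adjusted p = 0.706). PMEL, TYR and TYRP1 had an unadjusted p under 0.05, as did 7.34% of all probe sets, and with the 3 numbers moved, or without the 3 arrays, 0 of 4 did. The differences were then -1.51 and -1.55 for PMEL, -1.73 and -1.85 for TYR, -2.70 and -2.76 for TYRP1 and -0.86 and -0.86 for MC1R. With the numbers as labelled and without resistant animal 6 they were -0.95 for PMEL, -1.08 for TYR, -1.93 for TYRP1 and -0.64 for MC1R. That setting still counted the 0 h array numbered 5, low in PMEL and TYR, as animal 5. With the 3 numbers moved and without animal 6, the resistant mean of PMEL was 11.498, against 12.13 in susceptible animals. For TYR these means were 8.17 and 8.84, for TYRP1 9.41 and 11.002, and for MC1R 7.67 and 8.26. The animals do not all have the same times, and animals 7, 8 and 12 have 1 array each.

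Over time no member passed in either phenotype. The 6 comparisons of times within a phenotype and the 2 differences of response between phenotypes each called 0 of 4 members and 0% of all probe sets in limma, and 0 of 4 members had an unadjusted p under 0.05. With the animal number as a fixed block, 48 h against 0 h in resistant skin called 84 of 13809 probe sets, and with 3 numbers moved 108, and 48 h against 24 h then called 16; no member was among them, and TYRP1 alone had an unadjusted p under 0.05, in the last. Without the block, in resistant skin 4.72% of all probe sets had such a p at 24 h against 0 h, 11% at 48 h against 0 h and 9.65% at 48 h against 24 h; in susceptible skin the shares were 2.30%, 0.949% and 1.88%. For the differences of the 24 h and 48 h responses between phenotypes they were 1.85% and 2.93%.

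In resistant skin PMEL at 48 h was -0.90 ± 1.17 (SE) from 0 h and -0.69 ± 1.12 (SE) from 24 h, and MC1R -0.51 ± 0.69 (SE) and -0.36 ± 0.66 (SE). TYR was -0.98 ± 1.32 (SE) from 0 h and -1.04 ± 1.27 (SE) from 24 h. TYRP1 was -1.79 ± 1.97 (SE) from 0 h and -2.17 ± 1.88 (SE) from 24 h. The limma adjusted p of the 4 genes ran from 0.757 to 0.813 for the first comparison and from 0.716 to 0.880 for the second. In susceptible skin at 48 h against 0 h the differences were 0.58 ± 1.35 (SE) for PMEL, 1.73 ± 2.27 (SE) for TYRP1, 0.60 ± 1.53 (SE) for TYR and 0.39 ± 0.80 (SE) for MC1R, and none was called. Of the susceptible animals, 9, 10 and 11 have a 0 h array and 48 h adds animals 7 and 13; with the animal as a fixed block the differences were -0.021 for PMEL, 0.43 for TYRP1, 0.102 for TYR and -0.20 for MC1R. With the animal number as a fixed block the resistant 48 h against 0 h differences turned to 0.38 for PMEL, 0.043 for TYRP1, 0.61 for TYR and 0.055 for MC1R, and with the 3 numbers moved they were -0.51, -0.88, -0.64 and -0.14, none of them called (limma adjusted p over all alternatives and members 0.264 to 0.996).

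Steps of PMEL within animals from 24 h to 48 h were small next to its full range between animals, but this did not hold for every gene. Over all times TYR ranged within susceptible animals by a median of 0.77 and by up to 1.65. The SD of their means was 0.75. From 24 h to 48 h, where no number was in doubt, PMEL in resistant animals 1, 2, 3, 5 and 6 moved from 11.61 to 10.07, 10.04 to 9.54, 10.50 to 10.52, 12.96 to 13.21 and 6.43 to 6.43. TYRP1 was lower at 48 h in 5 of 5 of these animals, from 11.08 to 9.56, 5.99 to 4.204, 7.70 to 7.001, 12.08 to 11.84 and 4.64 to 1.09, of which the pairs of animals 2 and 6 lay under the array median at both times. TYR was lower in 4 of 5 (median step -0.64) and MC1R in 2 of 5 (median step 0.18). In the 4 susceptible animals with both times, TYRP1 was lower in 3 of 4 (median step -0.25), and PMEL in 3 of 4 (-0.41). With the animal as a fixed block and 3 numbers moved, TYRP1 at 48 h was -1.42 ± 0.39 (SE) from 24 h in resistant skin, at a limma adjusted p of 0.116, and with the numbers as labelled -1.40 ± 1.35 (SE, limma adjusted p = 0.666). Over all alternatives and members of that comparison it ran from 0.116 to 0.995.

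The 4 genes kept much the same order of arrays. Over the 30 arrays, which share animals, the Pearson correlation of PMEL was 0.96 with TYR, 0.91 with TYRP1 and 0.85 with MC1R (Spearman 0.92, 0.94 and 0.96). Since 3 arrays lay far under the others in PMEL, it is given also over the 27 arrays with PMEL at 8 or more, where it was 0.87, 0.91 and 0.96. The least alike pair was TYR and MC1R over 30 arrays (0.76, and 0.85 over 27), and TYR and TYRP1 over 27 arrays (0.81, and 0.86 over 30).

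**Figure D4:**
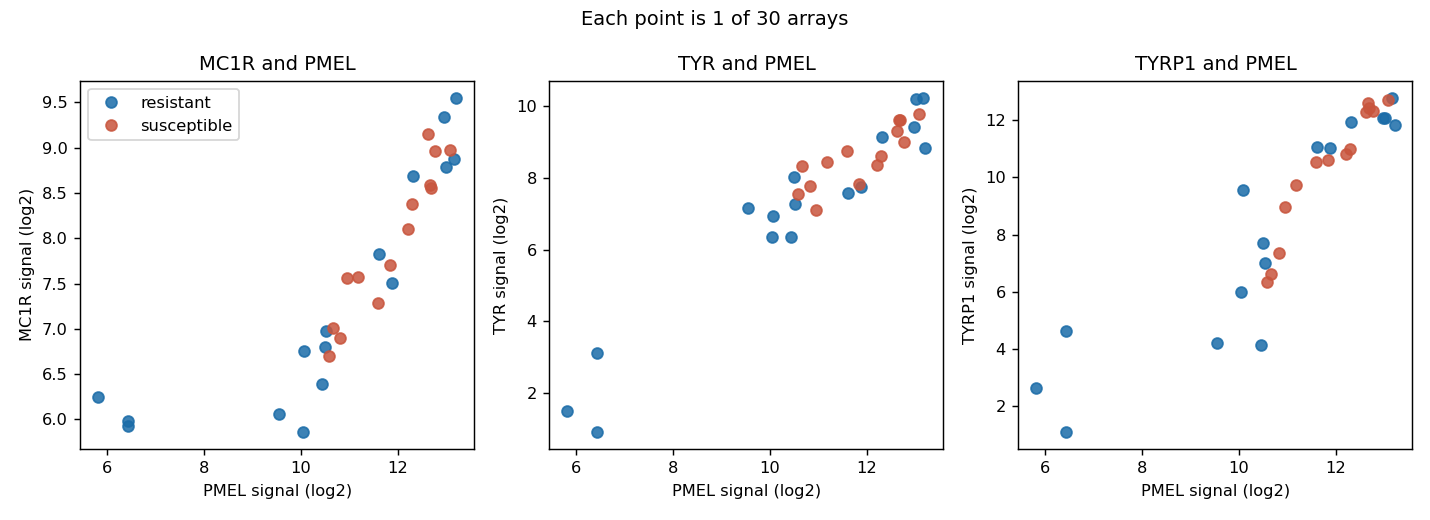
MC1R, TYR and TYRP1 signal (log2, vertical axes) against PMEL signal (log2, horizontal axis), each point 1 of 30 arrays, blue resistant and red susceptible. The 3 arrays with PMEL at 5.82 to 6.43 lie apart at the lower left of the TYR panel (0.91 to 3.12), and over the other 27 arrays the Pearson correlations are 0.96 for MC1R, 0.87 for TYR and 0.91 for TYRP1.

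Each member's nearest patterns among the kept probe sets with a single symbol included the other members. All 3 others were among the 5 most alike for PMEL and for TYRP1, and PMEL and TYRP1 were among them for TYR and for MC1R. Beside the members, ATP6V0D2, a subunit of the vacuolar proton pump, was among the 5 nearest of all 4, with a Pearson correlation to PMEL of 0.94 over 30 arrays and 0.89 over 27. ATP6V0D2 was at 1.32 to 4.14 in the 3 arrays low in PMEL and at 5.97 to 9.49 in the other 27, and 97.1% of its variance lay between animals without the doubtful arrays. TTYH2, of the tweety family of membrane proteins, was near TYRP1 (0.83 over 30 arrays, 0.89 over 27) and MC1R (0.87 and 0.86). PLXNC1, a receptor for the semaphorin SEMA7A, was near TYR (0.86) and PMEL (0.82), but over 27 arrays it was at 0.59 and 0.37, and it was at 6.44 to 7.46 in the 3 low arrays and at 8.29 to 9.70 in the others. CYB561A3 was near MC1R (0.80 and 0.76), and a probe set of ENPP5 was near TYR (0.84 and 0.62). Another kept probe set of ENPP5 was at 9.19 to 9.83 in the 3 arrays low in PMEL. In the other 27 it was at 8.35 to 11.25, so there the ranges overlapped. Of 8595 other such probe sets, 4 had a correlation of at least 0.8 with PMEL, 2 with TYRP1, 4 with TYR and 1 with MC1R.

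The other genes of the pigment pathway were set beside the members. Of 68 genes listed for melanocytes and melanosomes, 45 were on the array and 31 besides the members were kept. None of the 31 was called in any of the 12 comparisons (limma, adjusted over all probe sets), and at most 4 had an unadjusted p under 0.05. Those 4 of 31 were in resistant minus susceptible skin at 48 h and in resistant skin at 48 h against 0 h, where 10.1% and 11% of all kept probe sets had such a p. Their median difference of resistant minus susceptible at 48 h was -0.09, against -0.04 for all kept probe sets. Without the doubtful arrays the median share of variance between animals was 56.8%, against 50.6% for all, and 3 of 31 were at 80% or more (BLOC1S6, HPS4 and KIT), as were 4.997% of all kept probe sets.

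Among the receptors, ligands and factors, KIT, the receptor that melanocytes and mast cells need for survival, was at 8.51 in the array numbered 5 at 0 h and at 9.06 and 9.85 in resistant animal 6, under all 27 other arrays (10.06 to 11.53). Its correlation with PMEL was 0.59 over 30 arrays and -0.15 over 27. The other kept probe set of KIT was at 8.13 or less in these 3 arrays and at 7.96 or more in the 27, so there the ranges overlapped. MITF, the main transcription factor of melanocytes, was at 7.73 to 8.58 in the 3 arrays and 7.02 to 8.70 in the others (correlation with PMEL -0.16). ASIP was at 8.03 to 8.72 and 6.18 to 9.33 (0.03). LEF1 and EDN3, an effector of Wnt signalling and an endothelin that acts on melanocytes, had the lowest correlations of the listed genes over 30 arrays, LEF1 at -0.46 (-0.07 over 27) and EDN3 at -0.50 (-0.06). Over 27 arrays the lowest were S100B, a calcium-binding protein of melanocytes and Schwann cells, at -0.50 (-0.34 over 30) and the macrophage gene CD68 at -0.49 (-0.07 over 30).

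Among genes of the melanosome itself, DCT, the third enzyme of the tyrosinase family, was under the array median in all 30 arrays (0.75 to 6.14) and was not kept; at these low signals its correlation with PMEL was 0.41 over 30 arrays and 0.80 over 27. GPNMB, a relative of PMEL that other cells such as macrophages also make, was at 11.81 to 13.38, with a correlation to PMEL of 0.13. MLPH, which links melanosomes to the transport motor, was the listed gene nearest to PMEL over 30 arrays, at 0.74, and was at 0.46 over 27, where BLOC1S6, a subunit of a complex that sorts cargo to melanosomes, was nearest among the kept genes at 0.55 (0.48 over 30). MLPH was at 7.78, 7.25 and 7.62 in the 3 arrays low in PMEL and at 8.30 to 10.27 in the others.

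**Figure D5:**
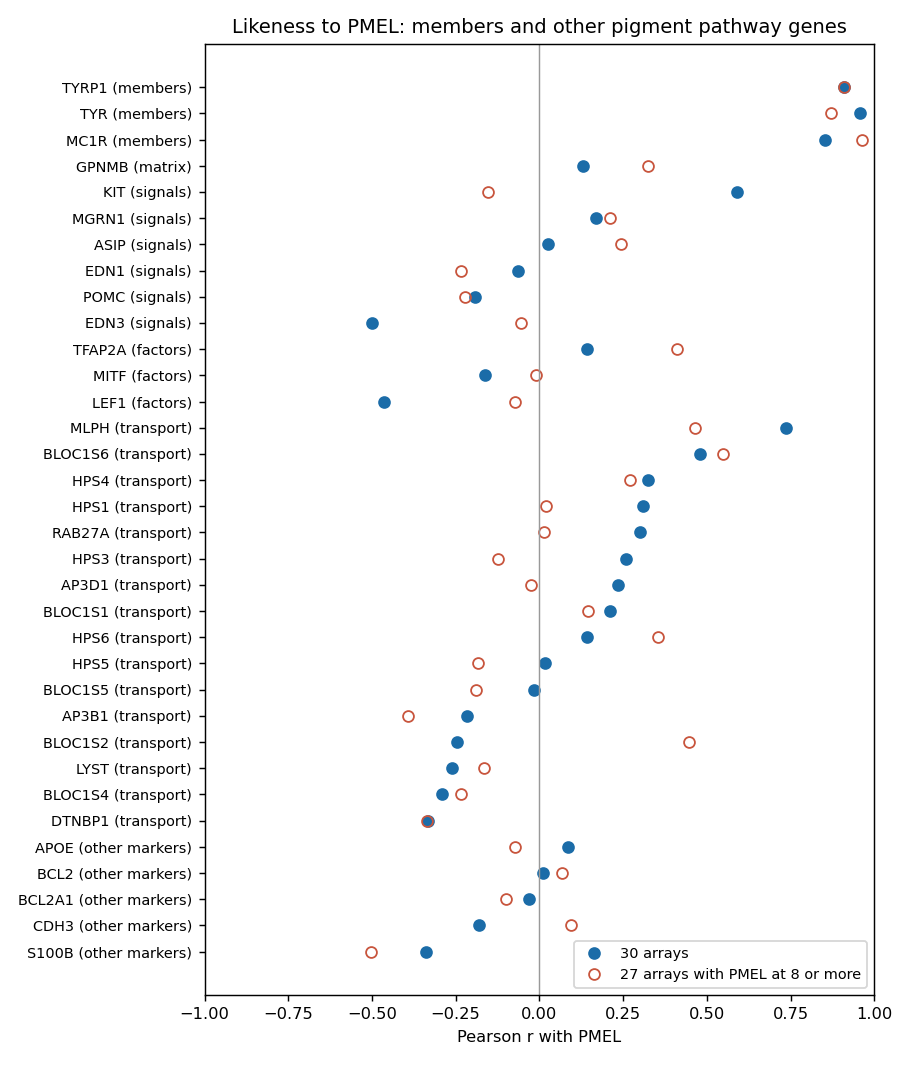
Pearson correlation with PMEL (horizontal axis) of the other 3 members and of the 31 kept genes of the melanocyte lists, over 30 arrays (filled) and over the 27 arrays with PMEL at 8 or more (open). The 3 members lie at 0.85 to 0.96 over 30 arrays and 0.87 to 0.96 over 27; MLPH is at 0.74 and 0.46, and KIT at 0.59 and -0.15.

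Markers of other cells in the biopsies were set beside PMEL. The summed level of 4 kept hair follicle genes of 31 listed (KRT25, HOXC13, DLX3 and CRYM) ran from 14.54 to 15.63 with a correlation to PMEL of -0.07. That sum was mostly KRT25 (median 15.19), with HOXC13 at 9.93, DLX3 at 6.92 and CRYM at 8.43. Over 30 and 27 arrays KRT25 alone was at -0.05 and 0.05 and HOXC13 at -0.21 and 0.30. DLX3 was at -0.29 and 0.04 and CRYM at -0.22 and 0.43. KRT25, a keratin of the follicle's inner root sheath, had a level of 15.15 to 15.43 in the 3 arrays low in PMEL and of 14.48 to 15.60 in the others. For summed levels over 30 and 27 arrays, correlations were -0.06 and 0.22 for 6 basal keratinocyte genes and -0.11 and 0.197 for 5 of epidermal differentiation. They were -0.03 and -0.16 for 8 fibroblast genes and -0.01 and -0.25 for 12 of monocytes and macrophages. In resistant minus susceptible skin at 48 h no gene of these lists was called. Higher were 12 of 12 monocyte and macrophage genes (median 1.37), 3 of 3 mast cell genes (1.57) and 8 of 8 fibroblast genes (0.47). Of the 12, 11 had an unadjusted limma p under 0.05, as did 10.1% of all kept probe sets. Lower were 6 of 6 basal keratinocyte genes (-0.63) and 4 of 4 hair follicle genes (-0.30). Epidermal differentiation had 1 gene higher and 4 lower (-0.55), and the Schwann cell list 1 higher and 1 lower (0.10). At 24 h directions differed, with 5 of 6 basal keratinocyte genes (0.57) and 3 of 4 hair follicle genes (0.21) higher. The Schwann cell list, of which 2 of 11 genes were kept (MBP and L1CAM), was at 0.63 and over 27 arrays at 0.19, and MBP, a myelin protein, alone at 0.51 and 0.06. Its summed level ran from 8.33 to 9.24, 8.45 to 9.81 and 9.10 to 9.53 in resistant skin at 0 h, 24 h and 48 h, and from 9.01 to 9.25, 9.05 to 9.49 and 9.15 to 9.33 in susceptible skin. The summed level of the mast cell list, with 3 of 7 genes kept, had a correlation to PMEL of 0.55 and over 27 arrays of -0.22. That sum was mostly KIT, which melanocytes also make (median 10.59, against 6.58 for TPSB2 and 6.23 for FCER1A). Taken alone, KIT was at 0.59 over 30 arrays, TPSB2 at 0.05 and FCER1A at 0.14. The summed level ran from 8.72 to 11.54, 9.28 to 11.60 and 10.11 to 11.40 in resistant skin. In susceptible skin it ran from 10.45 to 11.31, 10.13 to 11.19 and 10.40 to 11.18. TGM3, a transglutaminase of hair and upper epidermis, was at -0.44 (0.14 over 27 arrays). The 3' minus 5' difference of the actin controls, a sign of RNA quality, ran from 1.04 to 5.76 with a correlation to PMEL of -0.31, and that of the GAPDH controls from 0.19 to 1.60 with 0.20; the part of these measures in the result was not tested.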

How the data were processed

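Total RNA of 30 skin biopsies was amplified and labelled with a 3' kit for Affymetrix arrays (per the labels' protocols). What the authors deposited is log2 signal, for which the submitters' processing notes name MAS5, its version and any genome build not given in the sources used here. Put back on the linear scale, every array had a 2% trimmed mean of 500.0. No detection calls are used here. Of 24128 rows, 112 controls were left out; a probe set was kept if it lay at or above its array's median in at least 3 arrays (13809). Symbols came from the annotation supplied with the values.

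The deposited values were used as they are. A linear model of 6 group means over 30 arrays was fitted with limma 3.58.1 in R 4.3.3 (eBayes with trend), and a second fit used 1 mean per animal; tests were two-sided, adjusted by Benjamini and Hochberg over all kept probe sets, with a threshold of 0.05. The fits were tested on simulated data with independent noise for each array and no difference between animals. That test cannot show how the fits do where arrays share animals, as here. The share of variance between animals is the between-animal sum of squares over the total. Animal numbers in the labels name the animal, which pairs its arrays; the number entered as a block only as an alternative (consensus correlation 0.14, or 0.21 with 3 numbers moved).

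The members and the gene lists were chosen with earlier results of these data known. Named genes are the members, the 5 probe sets most like each by Pearson correlation, the 3 listed genes most and the 3 least like PMEL, and DCT, MITF, SOX10, KIT and ASIP; BLOC1S6, HPS4, S100B, CD68, GPNMB, KRT5, KRT25 and others were named after their values were seen. Alternatives were quantile normalization, median centring, no filter, an offset of 16, blocks, array weights, only the groups compared and leaving out each array. Plots used matplotlib 3.10.9 in Python 3.11.15.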

Additional observations from a re-analysis of the deposited data

Results flagged for a closer look

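Of 28 groups of 4 to 7 arrays or animal means, 3 held a value far from the rest by Dixon's ratio of the gap to the range, which chance gives in about 1 in 20. TYRP1 in susceptible skin at 24 h was at 6.34 in animal 9, with the next lowest array at 10.54. TYR in resistant skin at 48 h was at 0.91 in animal 6, with the next lowest at 6.94. MC1R in resistant skin at 48 h was at 9.55 in animal 5, with the next highest at 6.98. In each of these animals the other arrays whose number was not in doubt lay on the same side: TYRP1 at 6.60 and 7.34 in susceptible animal 9, TYR at 3.12 in resistant animal 6 and MC1R at 9.34 in resistant animal 5.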

How the results depend on the processing

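The count of called members stayed at 0 in all 12 comparisons under each of 464 combinations of comparison and alternative, leaving out each array included; the replicate block by animal number changed no call of a member, though over all 13809 probe sets the fixed block raised the calls for 48 h minus 0 h in resistant skin from 0 to 84 (108 with 3 numbers moved). The lowest adjusted p of any member was 0.116. Shares of variance between animals moved with the numbering: with 3 numbers moved they were 97.0% (PMEL), 96.6% (TYRP1), 95.0% (TYR) and 95.3% (MC1R), and without the 3 doubtful arrays, an alternative chosen after seeing the data, 96.8%, 96.2%, 94.2% and 95.0%. Leaving out 1 array gave 28.7% to 92.6% for PMEL, 61.0% to 89.1% for TYRP1, 34.4% to 89.7% for TYR and 60.02% to 89.99% for MC1R, the lowest without either array of resistant animal 6 and the highest without the resistant 0 h array numbered 5.

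Of 28 member differences followed, none called, some changed sign. At 0 h TYRP1 was 0.21 with an offset of 16 and 0.044 with array weights, and MC1R was -0.22 with the animal as a random replicate block, -0.25 with that block and 3 numbers moved, and -0.60 without the 3 doubtful arrays. With the animal as a fixed replicate block, 48 h minus 0 h in resistant skin was 0.38 (PMEL), 0.043 (TYRP1), 0.61 (TYR) and 0.055 (MC1R); MC1R was 0.10 without the 3 arrays. In susceptible skin PMEL was -0.021 and MC1R -0.20 with the fixed replicate block under either numbering. Leaving out 1 array gave, at 0 h, -0.99 to 0.84 (PMEL), -1.35 to 1.22 (TYRP1), -1.49 to 0.70 (TYR) and -0.32 to 0.34 (MC1R); for TYR at 48 h minus 0 h in resistant skin it gave -2.41 to 0.35, and at 48 h minus 24 h -1.53 to 0.19 (PMEL), -1.87 to 0.29 (TYR) and -0.98 to 0.027 (MC1R). The cause of these changes was not tested. With 3 to 6 arrays a group and SDs up to 4.78, a difference of several log2 units in TYRP1 could not be told from the spread.
The fixed block could not give the comparisons between phenotypes, since each animal has 1 phenotype.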
